A study of Mus musculus with 24 samples.

Results

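The genes examined here are 8 markers and regulators of the oligodendrocyte lineage: Pdgfra, Cspg4, Olig1, Olig2, Sox10, Gpr17, Bcas1 and Enpp6. They were taken by symbol from a read-count table of 54532 genes measured in the striatum of 24 mice, each symbol matched 1 row, and all 8 passed the filter on low counts that left 19667 genes for testing. The mice were of the strain C57BL/6 and had 4 genotypes with 6 animals each, 3 male (replicates 1 to 3) and 3 female (replicates 4 to 6): WT; TyrobpKO, which lack Tyrobp, the gene of a signalling adaptor of microglial receptors; Q175, heterozygous for a Huntington's disease knock-in allele, in which Htt carries a lengthened CAG tract; and Q175_TyrobpKO, which carry the allele and lack Tyrobp. The labels give no age, and they do not say which cells or exons the Tyrobp deletion covers. Each library came from the striatum of 1 hemisphere, so every value is a mean over all cells of the dissected tissue, and fewer cells of a type and less RNA per cell cannot be told apart.

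Oligodendrocytes form from precursor cells that persist and divide throughout the adult brain. Precursors carry the growth factor receptor Pdgfra and the proteoglycan NG2, encoded by Cspg4. When a precursor commits to differentiation it loses both, passes through a stage marked by Gpr17, Bcas1 and Enpp6, and then makes the myelin proteins. Olig1, Olig2 and Sox10 are transcription factors that the lineage keeps from precursor to myelinating cell, and striatum holds many myelinated fibre bundles, so their RNA in a tissue sample comes from mature cells as well as from precursors.

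Of the 8 genes, Enpp6 was higher in Q175 than in WT past the test, while Pdgfra, Cspg4 and Olig2 differed by under 3%. Lineage genes outside the 8 were called in both directions, among them the transcriptional regulator Zfp488, which was higher in Q175. The windows of 250 bases upstream of the RefSeq starts (build GRCm38.p6) are shown as context for Enpp6 and Zfp488, with Pdgfra as a precursor gene that did not pass the test. Of the 8 genes, 4 have a window in the RefSeq table used here. The windows are Enpp6 at chr8:46986637-46986886 (plus strand), Zfp488 at chr14:33978765-33979014 (minus strand) and Pdgfra at chr5:75152001-75152250 (plus strand), each printed 5′ to 3′ along the gene, with matches to 2 motifs in capitals: the E-box CANNTG, the class of site that basic helix-loop-helix factors such as Olig1 and Olig2 bind, and ACAAAG or ACAATG, core letters of sites bound by Sox factors, both searched on both strands with no overlap between the 2 kinds of match.
Enpp6: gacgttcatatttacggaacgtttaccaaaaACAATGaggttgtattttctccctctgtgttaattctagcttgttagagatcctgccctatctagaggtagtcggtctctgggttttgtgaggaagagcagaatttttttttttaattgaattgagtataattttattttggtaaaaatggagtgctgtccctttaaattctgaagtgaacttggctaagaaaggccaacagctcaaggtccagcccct
Zfp488: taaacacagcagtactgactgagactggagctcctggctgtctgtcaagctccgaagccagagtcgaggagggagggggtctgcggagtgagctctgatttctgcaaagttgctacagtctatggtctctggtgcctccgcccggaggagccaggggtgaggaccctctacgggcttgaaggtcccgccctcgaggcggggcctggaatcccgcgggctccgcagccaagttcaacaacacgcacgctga
Pdgfra: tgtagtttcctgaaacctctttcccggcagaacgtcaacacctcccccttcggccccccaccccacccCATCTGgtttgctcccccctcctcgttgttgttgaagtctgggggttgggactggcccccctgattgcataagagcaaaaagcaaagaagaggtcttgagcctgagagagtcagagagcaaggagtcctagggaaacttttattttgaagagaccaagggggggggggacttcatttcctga
The Enpp6 window held ACAATG at bases -219 to -214 from the start and no E-box, the Pdgfra window held CATCTG at -182 to -177 and no Sox letters, and the Zfp488 window held neither. Over all 32851 windows of that length in the table, 66.2% held an E-box and 25.2% held ACAAAG or ACAATG. These are matches of letters and not measured binding sites.

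Total counts were 25482686 to 34626720 per library, and the 8 genes had between 427 reads (Cspg4) and 13207 reads (Bcas1) in a library. Tyrobp was at most 0.448 CPM (a gene's counts relative to the library total, the totals scaled by the TMM method) in the 12 libraries labelled as lacking it and at least 5.69 CPM in the others. Htt was lower in Q175 than in WT (log2 fold change -0.46 ± 0.06, standard error). Markers of striatal projection neurons were present in every library, with a summed level of 5594 to 8981 CPM in WT and 3838 to 5316 CPM in Q175. Of these markers 8 of the 9 were lower in Q175 past the test, which 9.63% of all genes passed in either direction. Other tissue was carried along unevenly. Ttr, the defining gene of choroid plexus, exceeded 10 times its median of 33.6 CPM in 4 libraries, namely Q175 replicates 3 and 5 and Q175_TyrobpKO replicates 4 and 6, and reached 3793 CPM in Q175 replicate 3. Slc17a7, a gene of cortical excitatory neurons, lay between 5.88 and 605 CPM over the 24 libraries.

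Compared per kilobase of the gene length listed in the table, the lineage genes kept nearly the same order in every library. Bcas1 stood highest at 83.4 ± 12.6 CPM per kb (SD, n = 24), followed by Olig1 at 63.0 ± 7.71, Sox10 at 26.5 ± 4.26 and Olig2 at 14.0 ± 2.20 CPM per kb. Each of these was above the next in all 24 libraries. Gpr17 (6.29 ± 0.714), Pdgfra (5.32 ± 0.373) and Enpp6 (4.26 ± 0.885) lay close together: Gpr17 exceeded Pdgfra in 22 libraries and Pdgfra exceeded Enpp6 in 20, and the ranges of all 3 overlapped. Cspg4 was lowest, at 1.62 ± 0.172 CPM per kb, below Enpp6 in all 24 libraries. Enpp6 had the largest spread over the 24 libraries (coefficient of variation 20.8%), and Pdgfra the smallest (7.01%).

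**Figure D1:**
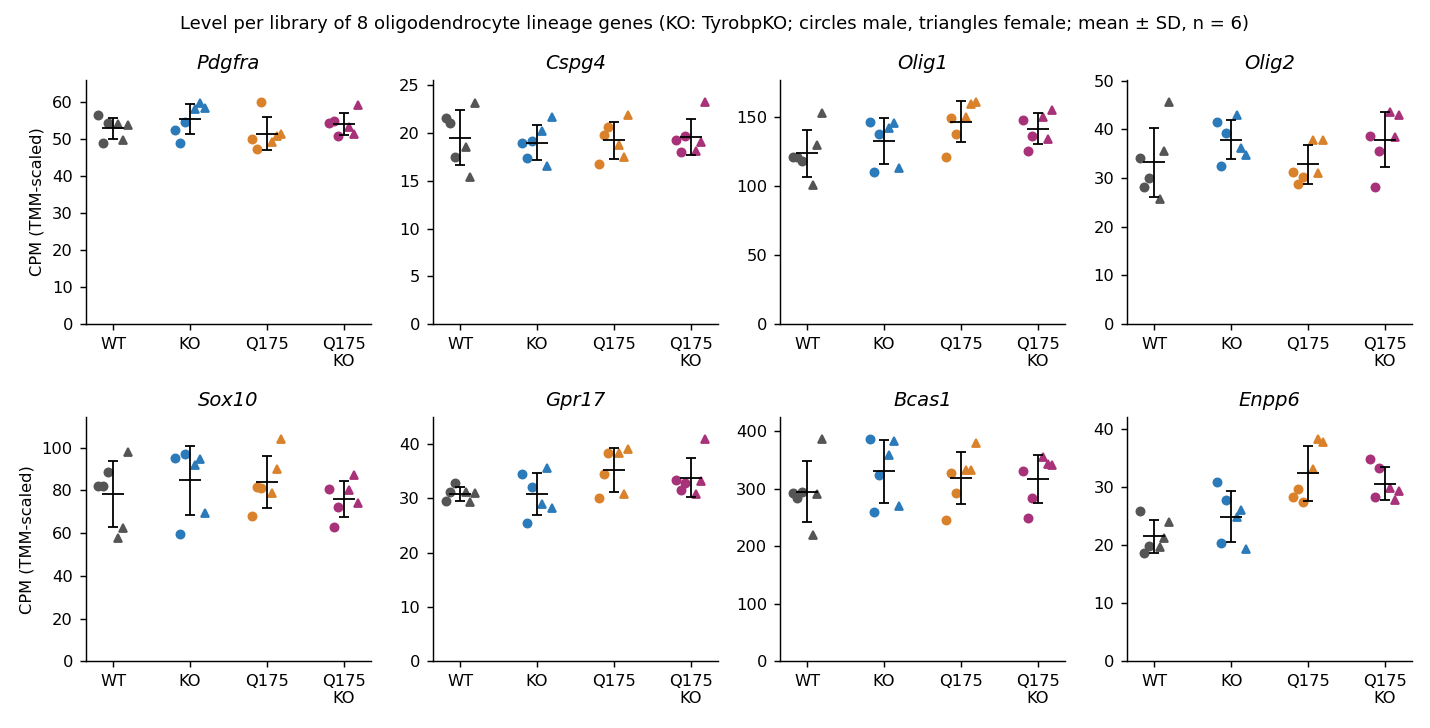
Level of each of the 8 genes in every library, in TMM-scaled CPM on axes that start at 0, by genotype (KO stands for TyrobpKO). Circles are males, triangles are females, and bars are the mean ± SD of 6 libraries. The 6 Q175 libraries lie above the 6 WT libraries for Enpp6, and the groups overlap for the other 7 genes.

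The precursor receptors were compared first. Pdgfra (ENSMUSG00000029231, chromosome 5, 75152292 to 75198215) encodes the receptor tyrosine kinase through which PDGF-A drives precursor division. Its lowest, median and highest levels were 48.8, 53.8 and 56.3 CPM in WT, 49.0, 56.2 and 59.8 CPM in TyrobpKO, 47.2, 50.2 and 59.9 CPM in Q175, and 50.8, 53.7 and 59.0 CPM in Q175_TyrobpKO. The 4 ranges overlapped, and no genotype lay apart from the others. In Q175 against WT the log2 fold change was -0.04 ± 0.06 (edgeR quasi-likelihood test, adjusted p 0.768), with a 95% interval from 10.6% lower to 6.01% higher.

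Cspg4 (ENSMUSG00000032911, chromosome 9, 56865033 to 56899870) encodes NG2, a surface proteoglycan of precursors that pericytes carry too. It ranged from 15.4 to 23.2 CPM around a median of 19.8 in WT and from 16.8 to 21.8 CPM around 19.3 in Q175. In TyrobpKO it ranged from 16.6 to 21.6 CPM (median 19.04) and in Q175_TyrobpKO from 18.0 to 23.2 CPM (median 19.2). No genotype stood apart. The difference of Q175 from WT was -0.02 ± 0.09 on the log2 scale, and its 95% interval ran from 13.7% lower to 12.4% higher. Pericyte and mural markers, a list of 8, summed to 208 to 230 CPM in WT and 191 to 220 CPM in Q175. None of the 8 was called by edgeR in that contrast and 2 had an unadjusted p under 0.05. Rgs5 was called lower in Q175_TyrobpKO against TyrobpKO (-0.26, edgeR adjusted p 0.0302), beside 5.86% of all genes. All 8 markers were detected, with Pdgfrb at 19.1 CPM or more in each library. The list of 7 fibroblast markers, cells that also carry Pdgfra, summed to 11.8 to 15.5 CPM in WT and 13.4 to 25.1 CPM in Q175, with no marker called by edgeR in that contrast and 2 with an unadjusted p under 0.05. The part of these cells in the Cspg4 and Pdgfra levels was not tested.

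The transcription factors followed. Olig1 (ENSMUSG00000046160, chromosome 16, 91269772 to 91271933) and Olig2 (ENSMUSG00000039830, 91225457 to 91228677) are basic helix-loop-helix factors whose genes lie 41.1 kb apart. Olig2 specifies the lineage, and Olig1 is required for myelin formation and repair. Olig1 was at 101, 121 and 153 CPM (lowest, median, highest) in WT, 110, 140 and 146 CPM in TyrobpKO, 121, 150 and 161 CPM in Q175, and 125, 142 and 155 CPM in Q175_TyrobpKO. The Q175 median lay above the WT median, yet the groups overlapped, with 2 of 6 Q175 libraries above the highest WT library. Olig1 differed by 0.24 ± 0.08 on the log2 scale in Q175 against WT (18.2%, 95% interval 4.82% to 33.2%), which missed the threshold after adjustment (edgeR adjusted p 0.0703). It passed when WT replicate 6, TyrobpKO replicate 6 or Q175 replicate 1 was left out (0.25 to 0.30, edgeR adjusted p 0.0190 to 0.0445).

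Olig2 levels lay closer together in WT and Q175. Its lowest, median and highest levels were 25.7, 32.1 and 45.6 CPM in WT and 28.7, 31.1 and 37.9 CPM in Q175, a difference of -0.02 ± 0.11 on the log2 scale. In the animals without Tyrobp the levels were 32.5, 37.7 and 42.8 CPM (TyrobpKO) and 28.2, 38.5 and 43.6 CPM (Q175_TyrobpKO). Both medians lay above those of the animals with Tyrobp. The fitted log2 fold changes were 0.19 ± 0.11 in TyrobpKO against WT and 0.20 ± 0.11 in Q175_TyrobpKO against Q175, and neither passed the test (edgeR adjusted p 0.749 and 0.830). Whether Olig1 and Olig2 differ from each other in their response was not tested.

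Sox10 (ENSMUSG00000033006, chromosome 15, 79154908 to 79165240) is an HMG-box factor that activates myelin genes. It was at 57.8, 82.0 and 97.8 CPM (lowest, median, highest) in WT, 59.4, 93.3 and 97.1 CPM in TyrobpKO, 68.1, 81.2 and 104 CPM in Q175, and 62.6, 77.0 and 87.0 CPM in Q175_TyrobpKO. The medians of WT and Q175 nearly coincided and the spread within each genotype was wide, with a coefficient of variation of 19.7% in WT. The difference of Q175 from WT was 0.09 ± 0.14 on the log2 scale, with a 95% interval from 12.6% lower to 29.9% higher.

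The genes of committed and newly formed oligodendrocytes came last. Gpr17 (ENSMUSG00000052229, chromosome 18, 31942997 to 31949636) encodes a receptor that holds committed precursors short of maturation. It lay within 29.4 to 32.9 CPM in WT (median 31.1), the narrowest range relative to its level among the 8 genes in that genotype, with a coefficient of variation of 4.13%. In Q175 it ranged from 30.0 to 39.1 CPM (median 36.4), and 4 of 6 Q175 libraries lay above the highest WT library. TyrobpKO ranged from 25.5 to 35.6 CPM (median 30.5) and Q175_TyrobpKO from 30.9 to 40.9 CPM (median 33.0). The difference of Q175 from WT was 0.19 ± 0.08 on the log2 scale (edgeR unadjusted p 0.0302) and did not pass after adjustment (adjusted p 0.161). Gpr17 lies within Lims2, which is on the opposite strand and had 6857 reads in all against 22060 for Gpr17. The use of strand in counting is not given in the sources used here, so some reads of the pair may be assigned to either.

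Bcas1 (ENSMUSG00000013523, chromosome 2, 170346991 to 170427845) encodes a protein of oligodendrocytes that are starting to myelinate and of myelin itself. It was at 219, 292 and 386 CPM (lowest, median, highest) in WT, 260, 341 and 385 CPM in TyrobpKO, 245, 329 and 379 CPM in Q175, and 249, 336 and 354 CPM in Q175_TyrobpKO. The 4 ranges overlapped. Its difference of Q175 from WT was 0.10 ± 0.12 on the log2 scale (edgeR adjusted p 0.666). The antisense gene Bcas1os2, inside Bcas1, had 1.01% as many reads as Bcas1.

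Enpp6 (ENSMUSG00000038173, chromosome 8, 46986887 to 47096762) encodes a choline-specific phosphodiesterase that newly forming oligodendrocytes make before the myelin genes reach their full level. In WT the 6 libraries were at 25.9, 18.6, 19.8, 19.7, 21.2 and 23.996 CPM (replicates 1 to 6). In Q175 they were at 28.2, 29.6, 27.5, 33.1, 38.2 and 37.7 CPM. Every Q175 library lay above every WT library, which was so in this direction or the other for 4.08% of the genes tested. Enpp6 rose by 0.59 ± 0.11 on the log2 scale in Q175 against WT, 50.1% with a 95% interval from 28.4% to 75.6% (edgeR adjusted p 0.000782).

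Enpp6 was thus the 1 member of the 8 that passed in this contrast, which called 9.63% of all 19667 genes (1893). Enpp6 was called in each of the 24 fits that left out 1 library, with log2 fold changes of 0.53 to 0.65. Without the 4 libraries of high Ttr its difference was 0.58 (edgeR adjusted p 0.00618). In the 6 males of the contrast alone it was 0.40 and no longer called (edgeR adjusted p 0.171), against 0.75 in the 6 females (adjusted p 0.00349); the test of the difference between sexes gave 0.34 ± 0.19 (edgeR unadjusted p 0.0933, adjusted p 0.9997). Titles number the animals behind a letter prefix, and the Q175 prefix recurs in WT replicate 3 but in no other WT animal. Apart from that animal, genotype and prefix go together in Q175 against WT, so they cannot be told apart in this contrast. Enpp6 in WT replicate 3 was 19.8 CPM, below every Q175 library, but that library alone does not separate them. What the prefix stands for is not given in the labels.

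**Figure D2:**
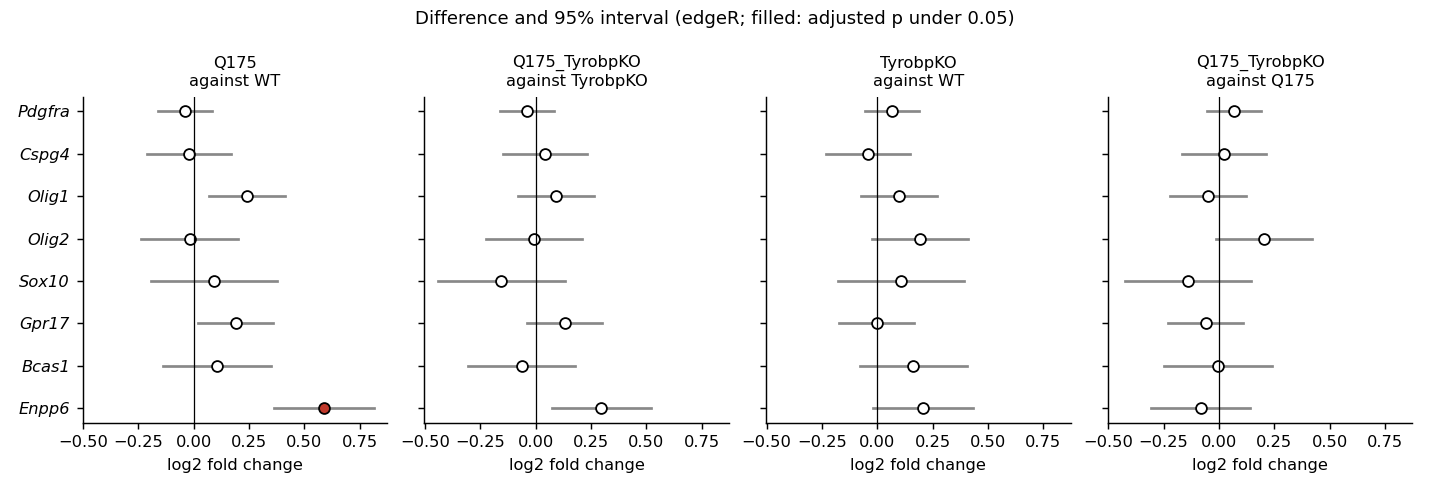
Log2 fold change of the 8 genes in 4 contrasts (points) with 95% intervals (lines), from edgeR's quasi-likelihood test; a filled point has an adjusted p under 0.05. Enpp6 in Q175 against WT (0.59) is filled, and no other point in these 4 panels is.

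None of the 8 genes differed past the test between animals with and without Tyrobp. In TyrobpKO against WT, where 0.117% of genes were called, 0 of 8 were called by edgeR, DESeq2 or limma-voom and 0 had an unadjusted edgeR p under 0.05. The largest of these differences were those of Enpp6 (0.21 ± 0.11, edgeR adjusted p 0.749) and Olig2. In Q175_TyrobpKO against Q175, where 0.158% of genes were called, 0 of 8 were called by the same 3 tools and 0 had an unadjusted edgeR p under 0.05. There Enpp6 differed by -0.08 ± 0.11, with a 95% interval from 19.1% lower to 10.3% higher. Both genotypes without Tyrobp share an animal-number prefix that no other animal has, so Tyrobp genotype and whatever the prefix marks cannot be told apart.

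The effect of the Q175 allele was then read in animals without Tyrobp, where both groups share the prefix. Enpp6 was at 30.9, 20.4, 27.7, 24.8, 26.0 and 19.3 CPM in TyrobpKO (replicates 1 to 6) and at 34.8, 28.3, 33.3, 29.8, 27.8 and 29.3 CPM in Q175_TyrobpKO. The groups overlapped through TyrobpKO replicate 1, and 2 of 6 Q175_TyrobpKO libraries lay above it. The difference was 0.30 ± 0.11 on the log2 scale (22.9%, 95% interval 5.18% to 43.6%), which did not pass after adjustment (edgeR adjusted p 0.117). Without TyrobpKO replicate 1 it was 0.38 and passed (edgeR adjusted p 0.0350). In this contrast 0 of 8 genes were called by edgeR, DESeq2 or limma-voom, 1 (Enpp6) had an unadjusted edgeR p under 0.05, and 5.86% of all genes were called.

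Against WT, the Q175_TyrobpKO libraries again stood higher for Enpp6, all 6 above the highest WT library (4.91% of all genes did not overlap between these groups), with a rise of 0.50 ± 0.11 (edgeR adjusted p 0.00330). This contrast shares its WT libraries with Q175 against WT. It called 1 of the 8 genes, beside 9.44% of all genes, and in females alone the difference of Enpp6 was 0.42 and not called (edgeR adjusted p 0.0906). The interaction, which tests whether the Q175 difference depends on Tyrobp genotype, called 0 of 8 genes by edgeR, DESeq2 or limma-voom and 0% of all genes by edgeR. None of the 8 had an unadjusted edgeR p under 0.05 for the interaction. The smallest of those p-values was that of Enpp6 (-0.29 ± 0.15, edgeR unadjusted p 0.0731, adjusted p 0.9993), with a 95% interval of -0.61 to 0.03.

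None of the 8 genes differed past the test between males and females, though the fitted difference was toward females for all 8. In female against male over all genotypes, where 0.0814% of genes were called, 0 of 8 were called by edgeR, DESeq2 or limma-voom. Olig2 had an unadjusted edgeR p of 0.0183 (adjusted p 0.9995), with 33.2 ± 4.60 CPM in 12 males and 37.7 ± 5.68 CPM in 12 females, and it was the 1 gene of the 8 with an unadjusted p under 0.05. Bcas1 was at 297 ± 39.7 CPM in males and 332 ± 49.8 CPM in females (edgeR adjusted p 0.9995). The sex difference in Q175 against WT called 0 of 8 genes by the 3 tools, 0 had an unadjusted edgeR p under 0.05, and 0% of all genes were called.

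The level of Enpp6 was set against that of mature myelin. The myelin list held 19 genes, among them Mbp, a major protein of the sheath. Its summed level was 9683 to 15528 CPM in WT (median 11859), 10622 to 15679 CPM in TyrobpKO (median 14113), 8944 to 13265 CPM in Q175 (median 10450), and 8758 to 11717 CPM in Q175_TyrobpKO (median 11108). The ranges overlapped, and the Q175 median lay below the WT median. In Q175 against WT edgeR called 0 of the 19 myelin genes, beside 9.63% of all genes, and 6 had an unadjusted p under 0.05. The list median log2 fold change was -0.14, against 0.01 over all genes tested. The smallest p-values of the list were those of Hapln2 (-0.32 ± 0.11, edgeR adjusted p 0.0598), which encodes a link protein of the node of Ranvier, and Mobp (-0.30 ± 0.11, edgeR adjusted p 0.0935), a structural protein of compact myelin. In Q175_TyrobpKO against TyrobpKO, 4 of 19 were called, all lower, beside 5.86% of all genes, among them Mobp (-0.47 ± 0.11), Ugt8a (-0.52 ± 0.12) and Mal (-0.42 ± 0.12). The list median there was -0.25. In TyrobpKO against WT 1 of 19 was called, beside 0.117% of all genes, and the list median was 0.14. The called gene was Klk6, a secreted protease of oligodendrocytes (0.87 ± 0.16). Klk6 was also the 1 gene of the list called in Q175_TyrobpKO against Q175 (1.01 ± 0.16), beside 0.158% of all genes. In Q175_TyrobpKO against WT, Klk6 (0.74 ± 0.16) and Ugt8a (-0.42 ± 0.12) were called, beside 9.44% of all genes. Klk6 was thus higher in each contrast of animals lacking Tyrobp against animals with it. The loss of Tyrobp and whatever else those animals share cannot be told apart, and the source of the Klk6 difference was not tested.

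As a share of the summed myelin CPM, Enpp6 separated carriers from non-carriers of the Q175 allele. The share was 0.155% to 0.210% in WT (median 0.177%) and 0.167% to 0.197% in TyrobpKO (median 0.185%). It was 0.275% to 0.320% in Q175 (median 0.299%) and 0.246% to 0.331% in Q175_TyrobpKO (median 0.282%). Each of the 12 carriers lay above each of the 12 non-carriers. How many other genes would separate these animals as a share of myelin was not counted. The divisor, the myelin sum, had lower medians in the carrier genotypes. Plain Enpp6 CPM overlapped between TyrobpKO and Q175_TyrobpKO through TyrobpKO replicate 1 (30.9 CPM). This ratio was chosen after the values were seen and is given as a description without a test.

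**Figure D3:**
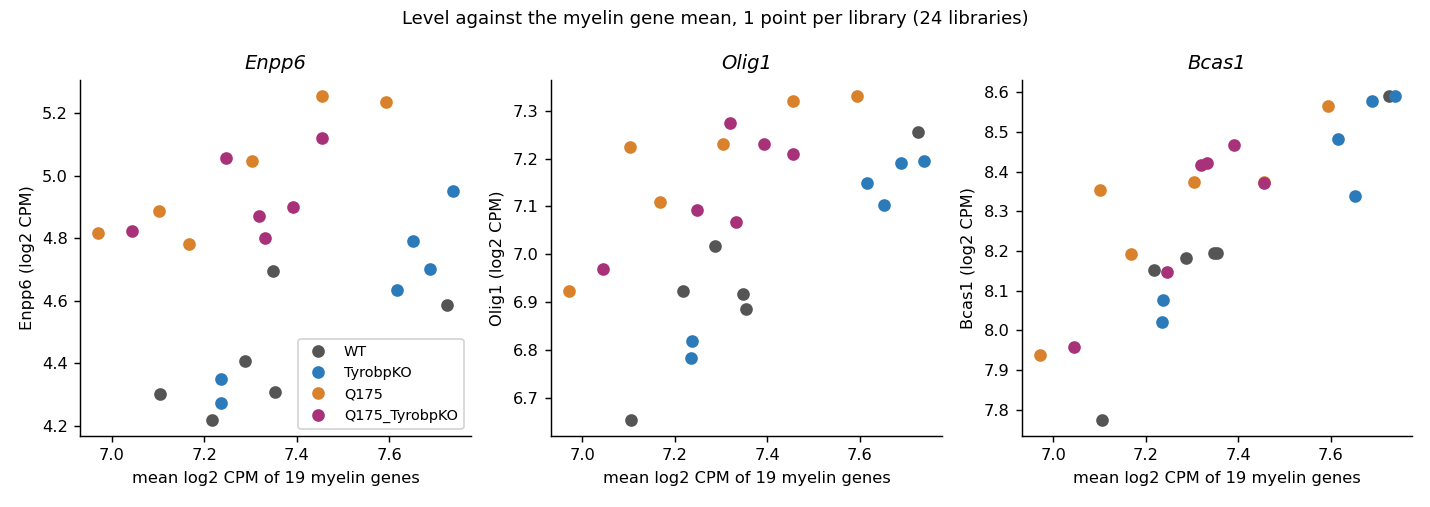
Level of Enpp6, Olig1 and Bcas1 (log2 CPM, vertical) against the mean log2 CPM of 19 myelin genes (horizontal), 1 point per library, coloured by genotype. At a given myelin level the Q175 and Q175_TyrobpKO points lie above the WT and TyrobpKO points for Enpp6; the 3 genes increase with the myelin mean within genotypes.

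A fit with the mean log2 CPM of the myelin list as a covariate compared the genotypes at an equal value of that mean. The single myelin genes did not become equal in it: in Q175 against WT 10 of the 19 were called, 4 higher and 6 lower, where 0 were called without the covariate. In the same contrast it called 3 of the 8 genes, all higher, beside 10.7% of all genes: Enpp6 (0.65 ± 0.07, edgeR adjusted p 7.01e-07), Olig1 (0.30 ± 0.05, edgeR adjusted p 0.000219) and Bcas1 (0.19 ± 0.06, edgeR adjusted p 0.0376). Sox10 was at 0.19 ± 0.07 (edgeR adjusted p 0.0821) and Gpr17 at 0.21 ± 0.08 (edgeR adjusted p 0.0828), and neither passed. Pdgfra (-0.04 ± 0.06) and Cspg4 (-0.01 ± 0.09) were close to their values without the covariate.

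The same fit in animals without Tyrobp called 2 of the 8 genes in Q175_TyrobpKO against TyrobpKO, both higher, beside 4.89% of all genes. Enpp6 differed by 0.51 ± 0.08 (edgeR adjusted p 0.000160) and Olig1 by 0.27 ± 0.06 (edgeR adjusted p 0.00441), while neither was called in the fit without the covariate. The interaction for Enpp6 was -0.13 ± 0.10 with the covariate (edgeR unadjusted p 0.202). The myelin genes were measured in the same libraries and their level itself varied with genotype, so a value from this fit is a difference relative to the list's mean and not a change in the tissue.

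Over the 24 libraries, 5 of the 8 genes moved with the myelin genes after the genotype and sex means were removed. The correlation with the myelin mean was r = 0.90 for Bcas1 (rho = 0.84), 0.89 for Olig1 (rho = 0.82), 0.88 for Sox10 (rho = 0.86), 0.83 for Enpp6 (rho = 0.83) and 0.73 for Olig2 (rho = 0.66). The permutation p-values of these 5, adjusted over the 8 relations computed, were at most 6.4e-05 for r and at most 0.00102 for rho. For Bcas1, Olig1 and Sox10 the unadjusted p was 1e-05, the smallest that 100000 permutations can give. Without the 2 libraries farthest from the median myelin level (TyrobpKO replicate 6 and WT replicate 6) r remained 0.64 to 0.87 for the 5 genes.

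The other 3 genes were less tied to myelin. Gpr17 had r = 0.44 (permutation adjusted p 0.0413) and rho = 0.40 (adjusted p 0.0757). Cspg4 had r = 0.24 (adjusted p 0.290; rho = 0.16, adjusted p 0.492) and Pdgfra r = 0.08 (adjusted p 0.697; rho = 0.15, adjusted p 0.492), both from the permutation test. Libraries share their dissection and depth among all genes, so these values describe libraries and not cells.

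Among themselves the genes fell along the same line. Of the 28 pairs of the 8 genes, 12 had a permutation adjusted p under 0.05 for r. Olig1 and Bcas1 were closest (r = 0.93, rho = 0.86, permutation adjusted p 0.00014 for both; r = 0.89 without WT replicate 4 and TyrobpKO replicate 6). Sox10 and Bcas1 followed (r = 0.88, rho = 0.85, permutation adjusted p 0.00014 for both; r = 0.85 without TyrobpKO replicate 2 and WT replicate 4). The neighbours on chromosome 16, Olig1 and Olig2, had r = 0.73 and rho = 0.62 (permutation adjusted p 0.00042 and 0.00636; r = 0.59 without WT replicate 4 and TyrobpKO replicate 6). None of the 7 pairs with Pdgfra passed, among them Pdgfra and Cspg4 with r = 0.35 and rho = 0.30 (permutation adjusted p 0.155 and 0.262; r = 0.28 without Q175 replicate 3 and TyrobpKO replicate 2).

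**Figure D4:**
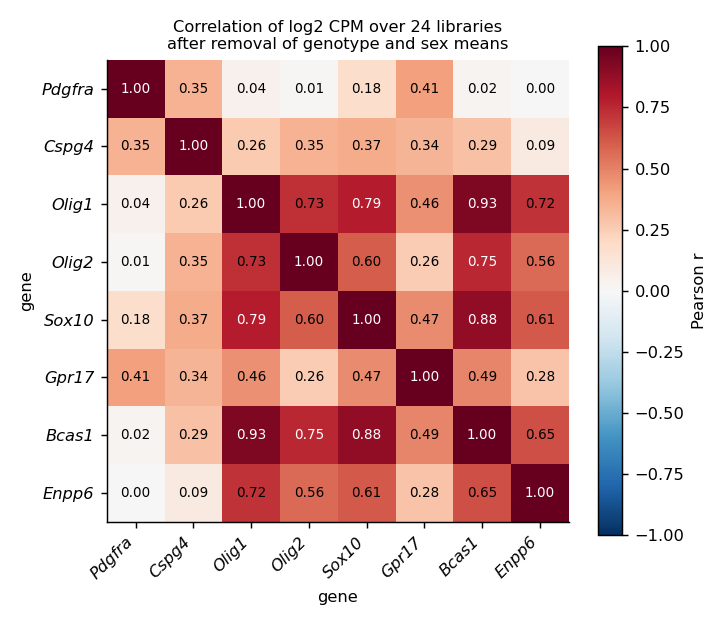
Pearson correlation of log2 CPM between the 8 genes over 24 libraries after removal of genotype and sex means (colour scale from -1 to 1, value in each cell). Olig1, Olig2, Sox10, Bcas1 and Enpp6 form a block of 0.56 to 0.93, while the Pdgfra row holds values of 0.41 or less.

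Genes outside the 8 were ranked by how closely they followed the mean of standardised residuals over the 24 libraries, with the 5 highest named and no test. The mean of Pdgfra and Cspg4 was followed by Tns1 (r = 0.84), Gpr146 (0.76), Pnp2 (0.76), Card9 (0.75) and Hk2 (0.74). The mean of Gpr17, Bcas1 and Enpp6 was followed by Gatm (0.91), Plekhb1 (0.91), Mobp (0.90), Evi2a (0.89) and Slain1 (0.89). The second set includes Mobp, a gene of the myelin list, and the first set includes none of the genes in the lists used here.

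Tissue carried along with the striatum was set beside the residuals of the 8 genes. Residual Slc17a7, the cortical neuron gene, had r = -0.52 with Pdgfra, -0.51 with Gpr17 and -0.41 with Cspg4, and r = 0.26 with Enpp6. Residual Ttr had r = 0.44 with Pdgfra and -0.07 with Enpp6. The list of 6 cortical neuron markers summed to 38.9 to 632 CPM in WT, 404 to 872 CPM in TyrobpKO, 15.1 to 732 CPM in Q175 and 12.5 to 835 CPM in Q175_TyrobpKO, with 0 of 6 called by edgeR and 0 at an unadjusted p under 0.05 in each of the 5 genotype contrasts. In Q175 against WT, which called 9.63% of all genes, Ttr and Aqp1 of 6 choroid plexus markers were called higher. Of 5 markers of ventricular wall progenitors, Sox11 was called higher (0.48 ± 0.12, edgeR adjusted p 0.00823). These correlations are descriptions over 24 libraries, and the tissues' part in the level of any gene was not tested.

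Other genes of precursors were read from a list of 20, all of which were tested. In Q175 against WT 4 of 20 were called, 3 higher and 1 lower, beside 9.63% of all genes, and the median log2 fold change was -0.06 against 0.01 over all genes. Lhfpl3, of the LHFPL tetraspan family, was at 21.2 to 29.2 CPM in WT and 28.7 to 38.4 CPM in Q175 (0.43 ± 0.13, edgeR adjusted p 0.0295). Pcdh15, a cell adhesion cadherin, was at 17.4 to 24.3 CPM in WT and 20.8 to 32.5 CPM in Q175 (0.36 ± 0.10, edgeR adjusted p 0.0184). Lrrn1, a leucine-rich repeat membrane protein, was at 58.6 to 85.9 CPM in WT and 76.0 to 96.1 CPM in Q175 (0.28 ± 0.08, edgeR adjusted p 0.0250). Cacng4, an auxiliary subunit of AMPA receptors that neurons express as well, was lower, at 124 to 186 CPM in WT and 105 to 131 CPM in Q175 (-0.45 ± 0.14, edgeR adjusted p 0.0409). The groups overlapped for all 4 genes.

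These precursor calls lay near the threshold, and leaving out 1 library could end them with little change in the log2 fold change. The call was lost for Pcdh15 without WT replicate 2, Q175 replicate 1 or Q175 replicate 3 (log2 fold change 0.30 to 0.32), and for Lrrn1 without WT replicate 1 or 2 or Q175 replicate 5 or 6 (0.24 to 0.26). It was lost for Lhfpl3 without WT replicate 1, 2 or 6 or Q175 replicate 3 or 6 (0.39 to 0.42), and for Cacng4 without any of 11 libraries (-0.45 to -0.39). Without the 4 libraries of high Ttr none of the 4 was called, with log2 fold changes of 0.40 for Lhfpl3 (edgeR adjusted p 0.0788), 0.31 for Pcdh15 (0.122), -0.44 for Cacng4 (0.137) and 0.22 for Lrrn1 (0.185). In each sex alone 3 of the 4 were not called, and Pcdh15 was called in males (0.53) and not in females (0.19).

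In Q175_TyrobpKO against TyrobpKO 2 of the 20 precursor genes were called, both lower, beside 5.86% of all genes: Ptprz1, a receptor phosphatase (-0.20 ± 0.06, edgeR adjusted p 0.0433), and Gria3, an AMPA receptor subunit (-0.24 ± 0.07, edgeR adjusted p 0.0460). Each lost its call without any of 17 of the 24 libraries, with log2 fold changes of -0.22 to -0.18 for Ptprz1 and -0.25 to -0.21 for Gria3. Neither was called in 1 sex alone or without the libraries of high Ttr (-0.22 for Ptprz1 and -0.21 for Gria3). Cacng4 was the 1 gene of the list called in Q175_TyrobpKO against WT (-0.51 ± 0.14, edgeR adjusted p 0.0189), beside 9.44% of all genes. The call was lost without any of 5 libraries (WT replicates 3 and 4, Q175_TyrobpKO replicates 1, 4 and 5), at -0.47 to -0.46. It was also lost in each sex alone (-0.51 in males and -0.52 in females) and without the libraries of high Ttr (-0.49). In TyrobpKO against WT and Q175_TyrobpKO against Q175, 0 of 20 were called by edgeR, with 1 and 2 genes at an unadjusted p under 0.05.

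The list of 20 other genes of committed precursors and newly formed oligodendrocytes had 2 called in Q175 against WT, both higher, a share (10%) close to the 9.63% of all genes, and a median of 0.12. Zfp488 (ENSMUSG00000044519, chromosome 14, 33967070 to 33978764), a zinc finger regulator that acts with Olig2 in oligodendrocyte differentiation, was at 5.11, 4.41, 5.16, 5.95, 5.04 and 5.72 CPM in WT and at 10.1, 9.37, 8.65, 7.84, 7.26 and 10.9 CPM in Q175 (replicates 1 to 6). Every Q175 library lay above every WT library for Zfp488, as for 4.08% of the genes tested in this direction or the other. The rise of Zfp488 was 0.79 ± 0.12 as a log2 fold change (edgeR adjusted p 8.18e-05).

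Zfp488 was higher in animals without Tyrobp too. It was at 4.35 to 6.07 CPM in TyrobpKO and 7.80 to 11.7 CPM in Q175_TyrobpKO, again with no overlap, which held for 4.49% of the genes tested (0.78 ± 0.12, edgeR adjusted p 0.000176). In each of these contrasts it was called in all 24 fits that left out 1 library. It was not called in females alone in Q175 against WT (0.64, edgeR adjusted p 0.144) or in males alone in Q175_TyrobpKO against TyrobpKO (0.62, edgeR adjusted p 0.0908). Without the libraries of high Ttr its difference was 0.87 and 0.69 in the 2 contrasts, called in both.

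The other named genes of that list had smaller or less certain differences. Cnksr3, a scaffold protein of kinase signalling, was at 3.99 to 5.69 CPM in WT and 4.804 to 7.95 CPM in Q175 (0.44 ± 0.14, edgeR adjusted p 0.0363). The call was lost without WT replicate 1, 4, 5 or 6 or Q175 replicate 3, 5 or 6 (0.38 to 0.44), without the libraries of high Ttr (0.32, edgeR adjusted p 0.209) and in each sex alone (0.24 in males and 0.65 in females). Sirt2, a tubulin and histone deacetylase of oligodendrocytes, was at 98.4 to 142 CPM in WT and 122 to 157 CPM in Q175 (0.22 ± 0.08, edgeR adjusted p 0.0814). Bmp4, a growth factor that newly formed oligodendrocytes make, had 0.800 to 1.32 CPM in WT libraries and 0.884 to 1.95 CPM in Q175 libraries, with a log2 fold change of 0.55 ± 0.25 that missed the threshold (edgeR adjusted p 0.182). In Q175_TyrobpKO against TyrobpKO 1 of 20 was called, Zfp488, beside 5.86% of all genes, and the list median was 0.01. Zfp488 was also the 1 gene of the 20 called in Q175_TyrobpKO against WT (0.74 ± 0.12), beside 9.44% of all genes. In females alone it was not called there (0.73, edgeR adjusted p 0.0831). In TyrobpKO against WT and Q175_TyrobpKO against Q175 edgeR called 0 of 20, with 1 and 0 genes at an unadjusted p under 0.05.

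The list of ligands, receptors and regulators that act on precursors held 30 genes, of which 4 (13.3%) were called in Q175 against WT, 1 higher and 3 lower, beside 9.63% of all genes (list median -0.05). Jag1, a Notch ligand, was at 16.7, 18.3 and 20.8 CPM (lowest, median, highest) in WT and 8.36, 9.69 and 11.1 CPM in Q175. The groups did not overlap, which held for 4.08% of the genes tested. Jag1 fell by 0.92 on the log2 scale (SE 0.09, edgeR adjusted p 4.47e-08) and was called in every one of the 24 fits that left out 1 library and in each sex alone. Hdac1, a histone deacetylase that acts in oligodendrocyte differentiation together with Hdac2, was at 18.6 to 23.0 CPM in WT and 24.1 to 35.0 CPM in Q175. Its groups did not overlap either (0.53 ± 0.08, edgeR adjusted p 5.47e-05). Id4, an inhibitor of basic helix-loop-helix factors that holds back differentiation, was at 175.3 to 292 CPM in WT and 120 to 182.1 CPM in Q175 (-0.59 ± 0.12, edgeR adjusted p 0.00198). Its call was lost in males alone (-0.63, edgeR adjusted p 0.0692) and in females alone (-0.55, adjusted p 0.1301). Nrg1, a ligand of ErbB receptors, was at 19.5 to 28.6 CPM in WT and 18.2 to 22.7 CPM in Q175 (-0.27 ± 0.08, edgeR adjusted p 0.0329). The call of Nrg1 was lost without WT replicate 3, 4 or 5 or Q175 replicate 2, 3 or 6 (-0.27 to -0.21), without the libraries of high Ttr (-0.27, edgeR adjusted p 0.0879) and in each sex alone (edgeR adjusted p 0.1400 in males and 0.497 in females). All 4 are expressed by neurons or astrocytes as well as by the lineage, and the source of the difference was not tested. In the same contrast, which called 9.63% of all genes, 8 of 9 projection neuron markers were lower. Of 7 astrocyte markers 2 were called, Slc1a2 lower and Gfap higher, and the others were not.

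In Q175_TyrobpKO against TyrobpKO 4 of the 30 signal genes were called, 1 higher and 3 lower, beside 5.86% of all genes. Jag1 fell by 0.82 (SE 0.09, edgeR adjusted p 6.64e-07), Hdac1 rose by 0.43 (SE 0.08, edgeR adjusted p 0.00115) and Id4 fell by 0.46 (SE 0.12, edgeR adjusted p 0.0207). Fgfr2, a receptor of fibroblast growth factors, was at 77.3 to 116 CPM in TyrobpKO and 70.4 to 86.1 CPM in Q175_TyrobpKO (-0.32 ± 0.09, edgeR adjusted p 0.0409). The call of Id4 was lost without TyrobpKO replicate 3, 4 or 6 or Q175_TyrobpKO replicate 4 (-0.44 to -0.41) and that of Fgfr2 without any of 9 libraries (-0.34 to -0.27). Over 12 alternative analyses Fgfr2 was called in 3, with log2 fold changes of -0.35 to -0.14. Without the libraries of high Ttr neither was called, at nearly the same log2 fold changes (-0.46 for Id4, edgeR adjusted p 0.0927, and -0.31 for Fgfr2, adjusted p 0.174). Hdac1 was not called in males alone (0.35, edgeR adjusted p 0.269), and Id4 and Fgfr2 were called in neither sex alone (edgeR adjusted p 0.464 and 0.381 in males, 0.0988 and 0.261 in females). In Q175_TyrobpKO against WT 4 of 30 were called, beside 9.44% of all genes: Jag1 (-0.89), Hdac1 (0.39), Id4 (-0.77) and Nrg1 (-0.29). There Nrg1 lost its call without the libraries of high Ttr (edgeR adjusted p 0.0804), in each sex alone, and without WT replicate 3 or 4 or Q175_TyrobpKO replicate 2, 4 or 5, and Hdac1 lost it in each sex alone. In TyrobpKO against WT and Q175_TyrobpKO against Q175 edgeR called 0 of 30, with 4 and 1 genes at an unadjusted p under 0.05.

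**Figure D5:**
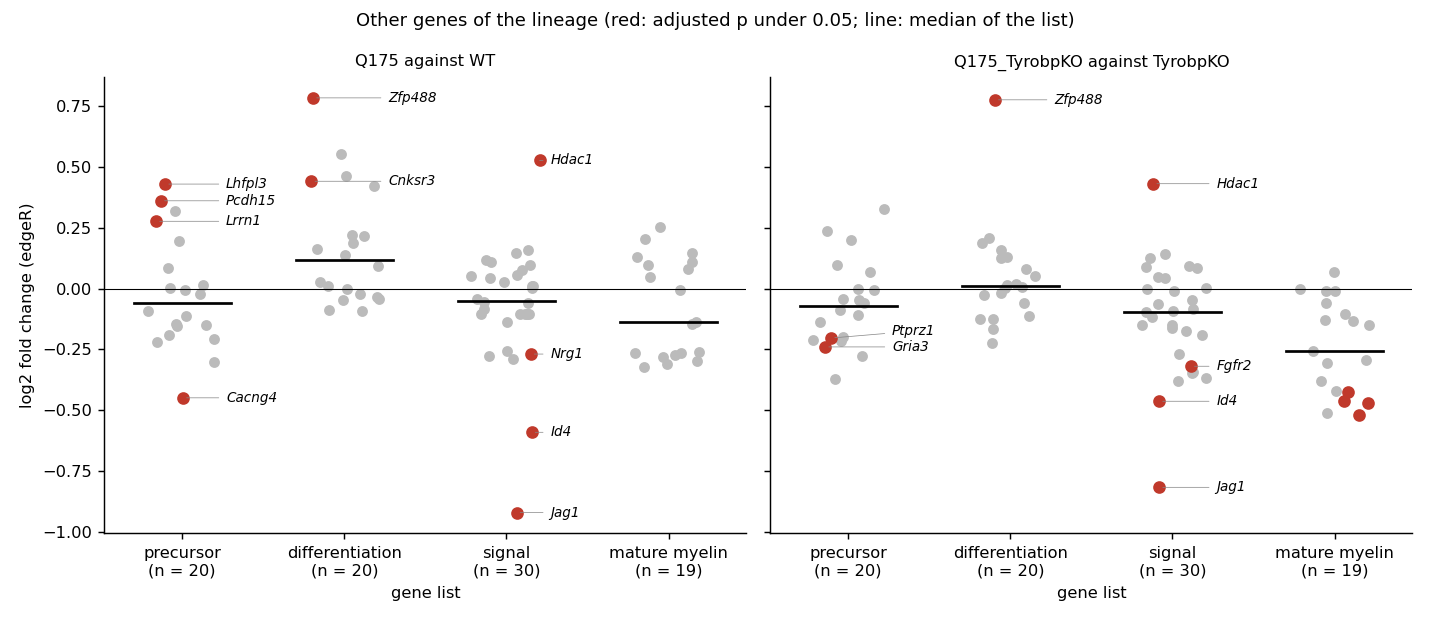
Log2 fold change (vertical) of every tested gene of 4 lists of lineage genes in Q175 against WT (left) and Q175_TyrobpKO against TyrobpKO (right). Red points have an edgeR adjusted p under 0.05 (named outside the myelin list), grey points do not, and horizontal bars are list medians; Zfp488 stands highest in both panels (0.79 and 0.78) and Jag1 lowest (-0.92 and -0.82).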

How the data were processed

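RNA-seq of mouse striatum was deposited as 1 count table, in which the authors left the reads of each gene unscaled. The submitters' processing notes name STAR, featureCounts and DESeq2, and the build GRCh38, which is a human build. The identifiers are mouse ones: 54495 of 54532 are in GENCODE M21 (GRCm38), 53585 with the same start and end, all 8 genes included. Coordinates are as deposited, counted from 1.

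Tests used edgeR 4.0.16 (R 4.3.3): TMM, filterByExpr on genotype, a robust quasi-likelihood fit of all 24 libraries with a mean per genotype and a sex term, and Benjamini-Hochberg adjustment over 19667 genes. A gene was called at an adjusted p under 0.05. The biological coefficient of variation was 16.2%. Log2 CPM for correlations used a prior count of 2. The fit was tested on simulated data. DESeq2 1.42.0 and limma-voom (limma 3.58.1) were alternatives. Over 60 same-genotype pairs the mean chi-square per gene was at least 6.89, so none was counted as a duplicate. Nothing in the labels excludes shared litters.

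The 8 genes, the lists and the named genes were chosen with earlier results of these data known: besides the 8, the named genes are the 4 of smallest p in Q175 against WT in each of the precursor, differentiation and signal lists, genes of these lists called in another genotype contrast, and 2 myelin genes. The other myelin genes were named after their values were seen. Correlation p-values are 2-sided and come from 100000 permutations of the libraries. Promoter windows are from RefSeq.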

Additional observations from a re-analysis of the deposited data

Results flagged for a closer look

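In 3 of the 32 combinations of gene and genotype, the highest library stood apart from the other 5 of its group by more than Dixon's limit; chance alone flags about 1 in 20. Pdgfra was at 59.9 CPM in Q175 replicate 3, against 51.4 CPM in the next library and 47.2 CPM in the lowest. That library had the highest Ttr of all (3793 CPM) and Slc17a7 at 8.49 CPM. Cspg4 was at 23.2 CPM in Q175_TyrobpKO replicate 6, against 19.7 CPM in the next library. Gpr17 was at 40.9 CPM in the same Q175_TyrobpKO replicate 6, against 33.3 CPM in the next library. That library had Ttr at 516 CPM and the lowest Slc17a7 of the 24, 5.88 CPM. The part of the other tissue in these 3 values was not tested.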

How the results depend on the processing

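The count of the 8 genes called was recomputed under up to 12 alternatives, of which 3 (leaving out the libraries of high Ttr, and the choroid plexus or the cortical neuron list as a covariate) were chosen after seeing the data. In Q175 against WT the count of 1 became 0 in males only and 3 with the myelin list as a covariate, and lay between 1 and 2 when 1 library was left out. In Q175_TyrobpKO against TyrobpKO the count of 0 became 2 with the myelin covariate and lay between 0 and 1 with a library left out. In Q175_TyrobpKO against WT the count of 1 became 0 in females only and 2 with the myelin covariate. Counts in the other contrasts remained 0 under each alternative run. Enpp6 in Q175 against WT lay between 0.40 and 0.75 on the log2 scale over its 12 alternatives and was called in 11. Of the 64 differences of the 8 genes, 62 were not called, and 35 of these changed sign under at least 1 alternative or left-out library; no called difference did. The number of all genes called in females only, males only and without the libraries of high Ttr was 187, 759 and 1186 in Q175 against WT (1893 in all animals), 290, 104 and 493 in Q175_TyrobpKO against TyrobpKO (1153), 240, 752 and 1110 in Q175_TyrobpKO against WT (1857), and 11, 11 and 14 in Q175_TyrobpKO against Q175 (31, and 52 by DESeq2). In TyrobpKO against WT it was 8 in females only and 65 in males only (23). No paired analysis was possible because the labels number animals and give no replicate shared between genotypes. With 6 libraries a group, differences of the size seen for Olig1 (18.2%) fell on either side of the threshold.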
